A study of Homo sapiens with 8 samples.

Results

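CCN1 (older symbol CYR61), CCN2 (CTGF), ANKRD1, AMOTL2, LATS2, AJUBA, SRF, TAGLN and TPM1 are 9 genes known as targets or regulators of YAP and of serum response factor. Their probe sets were taken where the platform annotation named exactly 1 of these genes or its older alias. This gave 24 of the 54675 probe sets on the array and 9 of the 19775 genes with such a probe set. HepG2, a human liver cancer cell line, was held in serum-free medium and profiled on 8 Affymetrix 3' expression arrays. Of these, 4 arrays came from cells given 3 µM quercetin, a plant flavonol, in that medium, and 4 from control cells in the medium alone. RNA was taken at 2, 4, 12 and 24 h, with 1 array for each treatment and time. All cells of both groups had been starved of serum beforehand, for a length that the series' text and the samples' labels give differently. The comparisons ask how these genes behaved over the hours after the start of treatment, and whether quercetin moved them.

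Cells sense attachment, crowding and serum partly through the Hippo pathway. Its kinases, among them LATS1 and LATS2, phosphorylate the coactivators YAP and TAZ and hold them out of the nucleus. When the kinases are quiet, YAP and TAZ bind TEAD transcription factors and drive genes such as CCN1, CCN2, ANKRD1 and AMOTL2. Serum lipids act on the same route through the actin cytoskeleton, and also release the cofactors MRTFA and MRTFB, which join SRF at genes for actin-binding proteins such as TAGLN and TPM1. A second class of SRF cofactors, the ELK factors, serves the immediate early genes that serum switches on within minutes. In the liver this pathway is known for the control of organ size, and its nuclear output is often raised in hepatocellular carcinoma.

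The TEAD core motif was searched as GGAATG or CATTCC, which are the same letters on opposite strands, in RefSeq promoter windows of build GRCh38.p14. Each window held 250 bases before and 50 after a gene's start. SRF binds the CArG box. The table held windows for 7 of the 9 genes, 10 windows in all. GGAATG or CATTCC lay in 14.0% of the 35116 windows of the table, and at least 3 matches in 0.128%. CCN2 had 3 matches, the first base of each 169, 104 and 95 bases before the start. A CArG box lay in 1.29% of windows and at least 2 in 0.0313%, and the first SRF start had 2, beginning 30 and 10 bases before it. The 250 bases before the CCN2 start (chr6:131951373-131951622, minus strand) and before the first SRF start (chr6:43171019-43171268, plus strand) are shown because these windows held the most matches. Capitals mark the matches.
CCN2: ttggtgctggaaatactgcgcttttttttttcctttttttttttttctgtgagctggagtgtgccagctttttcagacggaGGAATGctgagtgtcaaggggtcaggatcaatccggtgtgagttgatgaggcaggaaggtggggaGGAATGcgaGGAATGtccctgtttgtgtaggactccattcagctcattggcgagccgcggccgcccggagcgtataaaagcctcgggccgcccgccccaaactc
SRF: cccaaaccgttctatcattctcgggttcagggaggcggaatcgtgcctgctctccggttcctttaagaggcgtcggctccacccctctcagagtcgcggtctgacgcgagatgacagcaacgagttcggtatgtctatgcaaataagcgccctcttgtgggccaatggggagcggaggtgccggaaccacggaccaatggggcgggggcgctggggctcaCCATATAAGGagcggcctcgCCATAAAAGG

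ANKRD1 had 2 matches to the TEAD core, the second AMOTL2 start 1 and the second AJUBA start 1. The 60 bases around the match farthest upstream are given for each, from chr10:90921275-90921334, chr3:134374484-134374543 and chr14:22976869-22976928, all on the minus strand, so that the flanks can be compared with those of CCN2.
ANKRD1: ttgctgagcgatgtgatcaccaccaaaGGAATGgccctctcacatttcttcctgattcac
AMOTL2: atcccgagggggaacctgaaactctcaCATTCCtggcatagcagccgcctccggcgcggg
AJUBA: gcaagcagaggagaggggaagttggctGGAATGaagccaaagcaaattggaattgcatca
LATS2 had 1 match that began at base 10 of the transcript, and the TPM1 window held neither motif. A match describes the letters of the window and not a bound site.

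The values are log2 expression levels as the authors deposited them. The mean of 7 hepatocyte markers, ALB, APOA1, TTR, AFP, SERPINA1, FGB and TF, lay between 13.90 and 14.25 on the 8 arrays. Fibroblast and stellate markers had 5 of 8 genes above the filter on dim probe sets and a mean of 7.63 to 7.91, endothelial markers 2 of 5 and 7.41 to 7.72, and leukocyte markers 3 of 4 and 8.88 to 9.31. The part of these markers in the results was not tested. The arrays fell into 2 classes by the mean of the hybridisation spike-ins. It was 11.19 to 11.35 on 3 arrays, the control array at 2 h and both arrays at 12 h, and 11.83 to 12.11 on the other 5. The 2 h pair was the only pair with 1 array in each class, and its 18S rRNA signal was 12.01 in quercetin and 8.57 in control. Over all arrays that signal ranged from 7.29 to 12.01.

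Of the 24 probe sets, 18 lay above the filter, a mean above the median of all probe sets (7.43). Each gene was read from its probe set with the highest mean, and 8 of the 9 genes were tested among 13298. ANKRD1, a nuclear and sarcomeric ankyrin repeat protein and a standard YAP readout, was left out as dim. Its level was 6.58, 7.01, 6.67 and 6.85 in the quercetin arrays at 2, 4, 12 and 24 h, and 6.73, 6.82, 6.49 and 6.74 in the control arrays, and all 8 lay below the filter.

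The 2 secreted matricellular proteins of the group, CCN1 and CCN2, which bind integrins at the cell surface, were lowest at 4 or 12 h and higher again at 24 h. CCN2 read 11.44, 11.39, 10.39 and 12.54 in the quercetin arrays at 2, 4, 12 and 24 h, and 11.90, 10.98, 10.49 and 12.23 in the control arrays. Both 12 h arrays lay below all others and both 24 h arrays above all others, so those times did not overlap with 2 h. Here and below, how many of all genes had arrays of 1 time set apart in this way was not counted. CCN2 fell by 1.23 ± 0.17 (SE, 2 arrays a time) on the log2 scale at 12 h against 2 h, which is 2.35-fold (limma adjusted p = 0.000487). At 24 h it was 0.71 ± 0.17 above 2 h (1.64-fold, limma adjusted p = 0.00570). Against 12 h the 24 h level was 1.94 ± 0.17 higher, or 3.84-fold (limma adjusted p = 2.74e-07). Each time had 1 quercetin and 1 control array and no replicate culture of either. The p-values of time contrasts, here and below, rest on how the treatments differed from time to time. They do not measure the spread between replicate cultures. The fall at 12 h and the difference between 24 and 12 h were called with any 1 of the 8 arrays left out. The rise over 2 h was 0.38 without the quercetin array at 2 h and 0.53 without the quercetin array at 24 h, and was called in neither case.

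CCN1 read 9.92, 9.93, 9.41 and 10.17 in the quercetin arrays at 2, 4, 12 and 24 h, and 10.67, 9.15, 9.32 and 10.25 in the control arrays. The control array at 2 h was the highest of the 8 and the control array at 4 h the lowest, while the quercetin arrays at 2 and 4 h differed by 0.02. CCN1 fell by 0.93 ± 0.24 at 12 h against 2 h (1.90-fold, limma adjusted p = 0.0358) and was 0.84 ± 0.24 higher at 24 h than at 12 h (1.80-fold, limma adjusted p = 0.0139). Its level at 24 h differed from that at 2 h by -0.08 ± 0.24. Without the control array at 2 h the difference at 12 h was -0.42 (limma adjusted p = 0.367). Without 1 of the 12 h arrays, control or quercetin, it was -0.87 or -0.98 and missed the threshold as well. The difference at 24 h against 12 h was not called without the control array at 12 h (0.79), without the control array at 24 h (0.78) or without the quercetin array at 24 h (0.90).

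AMOTL2, an angiomotin family protein that binds YAP and is itself a YAP target, read 9.74, 9.99, 10.05 and 10.69 in the quercetin arrays at 2, 4, 12 and 24 h, and 10.62, 9.76, 10.00 and 10.80 in the control arrays. Both 24 h arrays lay above the other 6, although the control array at 2 h came within 0.07 of the lower of them. AMOTL2 was 0.72 ± 0.21 higher at 24 h than at 12 h (1.65-fold, limma adjusted p = 0.0157), and 0.56 ± 0.21 above 2 h, which missed the threshold (limma adjusted p = 0.0577). The first of these was not called without the control array at 12 h (0.57) or without the quercetin or the control array at 24 h (0.68 and 0.76).

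LATS2, the kinase that restrains YAP and is induced by it, read 11.31, 11.27, 11.27 and 11.54 in the quercetin arrays at 2, 4, 12 and 24 h, and 11.64, 11.23, 10.97 and 11.61 in the control arrays. The control array at 12 h was the lowest and the control array at 2 h the highest, and 2 h overlapped with 24 h. LATS2 rose by 0.46 ± 0.15 at 24 h against 12 h (limma adjusted p = 0.0365) and differed by 0.10 ± 0.15 at 24 h against 2 h. AJUBA, a LIM domain protein that binds and inhibits LATS kinases, read 12.68, 12.62, 12.79 and 12.99 in the quercetin arrays at 2, 4, 12 and 24 h, and 12.93, 12.83, 12.68 and 13.29 in the control arrays. Both 24 h arrays lay above the other 6. AJUBA rose by 0.41 ± 0.12 at 24 h against 12 h (limma adjusted p = 0.0181) and was 0.33 ± 0.12 above 2 h (limma adjusted p = 0.0515). Without the control array at 12 h, or without either 24 h array, neither gene was called at 24 h against 12 h. Without the control array at 12 h LATS2 differed by 0.25 and AJUBA by 0.22. LATS2 also missed the threshold without either 4 h array, at the same difference of 0.46.

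SRF, the transcription factor that binds the CArG box, read 9.51, 9.52, 9.43 and 9.51 in the quercetin arrays at 2, 4, 12 and 24 h, and 9.88, 9.47, 9.51 and 10.02 in the control arrays. The quercetin arrays spanned under 0.10 while the control arrays at 2 and 24 h stood above the rest. No time contrast of SRF was called, and at 24 h against 12 h it differed by 0.30 ± 0.19 (limma adjusted p = 0.260).

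The 2 actin-binding targets did not share the pattern of CCN2. TAGLN, transgelin, which cross-links actin in smooth muscle and fibroblasts, read 9.43, 9.50, 9.78 and 9.21 in the quercetin arrays at 2, 4, 12 and 24 h, and 9.80, 9.51, 9.35 and 9.18 in the control arrays. Both 24 h arrays lay below the other 6, and the differences at 24 h were -0.42 ± 0.20 against 2 h (limma adjusted p = 0.139) and -0.36 ± 0.20 against 12 h (limma adjusted p = 0.183). TPM1, a tropomyosin that lies along actin filaments, read 11.69, 11.43, 11.87 and 11.57 in the quercetin arrays and 11.80, 11.47, 11.75 and 11.67 in the control arrays. Its 4 h arrays were the lowest of the 8, and no time contrast of TPM1 was called.

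**Figure D1:**
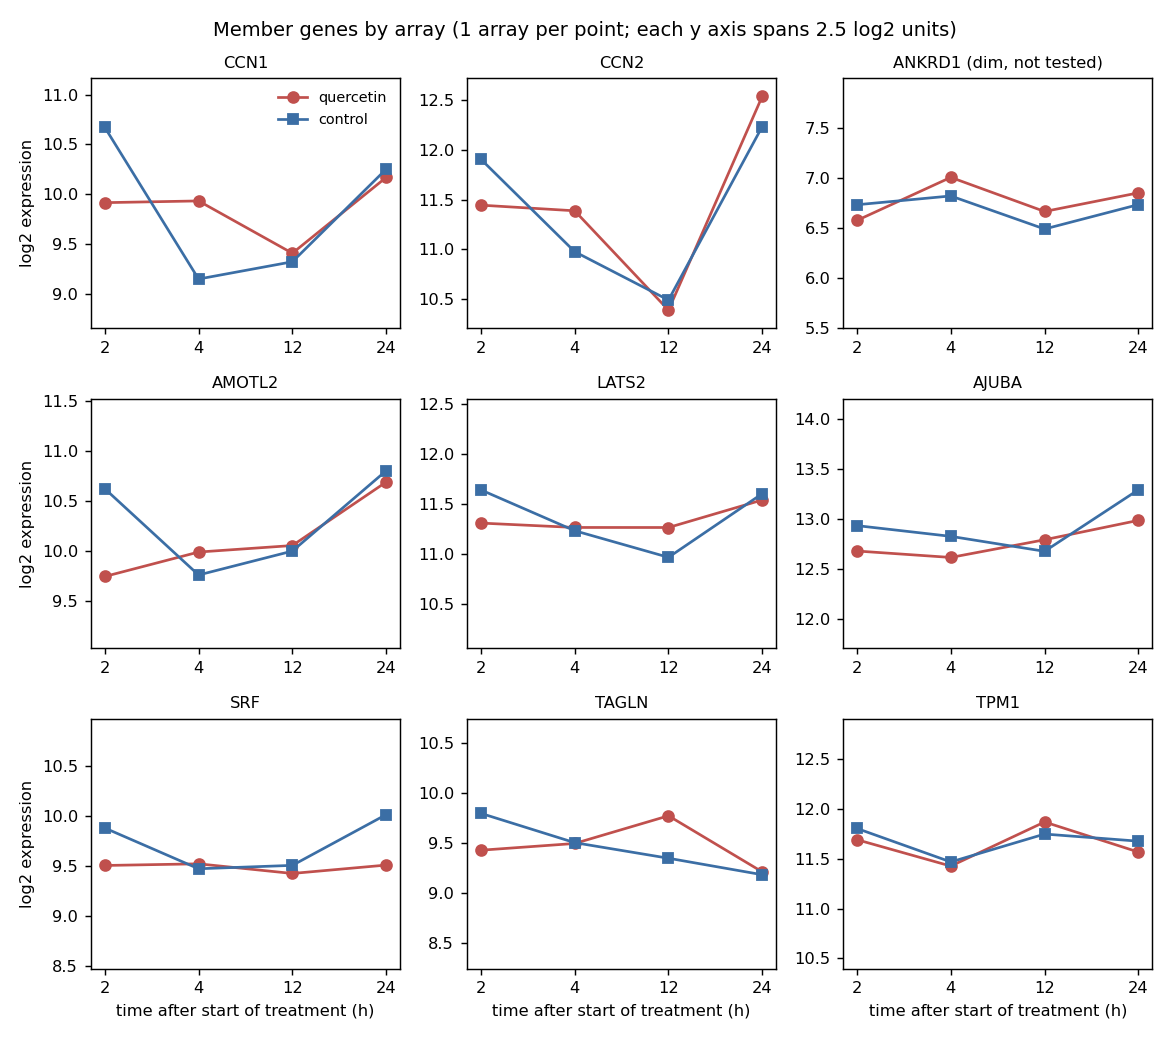
Log2 expression of the 9 genes against hours after the start of treatment, 1 point per array, with quercetin as red circles and control as blue squares. CCN2 is lowest at 12 h (10.39 in quercetin, 10.49 in control) and highest at 24 h (12.54 and 12.23), while TAGLN is lowest at 24 h in both treatments.

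Taken by contrast, 0 of the 8 tested genes were called at 4 h against 2 h, where limma called 0.534% of all genes. All 8 lay lower in the fit of both treatments together, with a median of -0.26 against -0.09 for all genes. The share of all genes that lay lower was not counted. In the quercetin arrays alone CCN1, AMOTL2, SRF and TAGLN differed by 0.02, 0.25, 0.02 and 0.07, and lay lower in control only. CCN2, LATS2, AJUBA and TPM1 lay lower in both treatments. After cyclic loess or quantile normalization of the arrays 6 and 5 of 8 lay lower. In that contrast 3 of the 8, CCN1, CCN2 and TPM1, and 2350 of 13298 genes had an unadjusted p under 0.05. At 12 h against 2 h 2 of 8 were called, CCN1 and CCN2, both lower, where 3.00% of all genes were called and 1.32% were called lower. The median of the 8 was -0.19 against -0.05 for all genes.

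Of the 8 genes 1, CCN2, was called at 24 h against 2 h, where 21.3% of all genes were called and 17.3% called higher, and the medians were 0.08 for the 8 and 0.09 for all genes. Over the 4 times together the F-test called CCN1, CCN2, AMOTL2 and AJUBA, 4 of 8, where it called 38.1% of all genes. After cyclic loess or quantile normalization it called CCN1, CCN2, TAGLN and TPM1, and no longer AMOTL2 or AJUBA. A contrast of 24 h against 12 h was added after the values had been seen. It called CCN1, CCN2, AMOTL2, LATS2 and AJUBA, 5 of 8 and all higher, where 23.7% of all genes were called, 19.0% higher and 4.78% lower. The median of the 8 there was 0.43 against 0.16 for all genes.

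**Figure D2:**
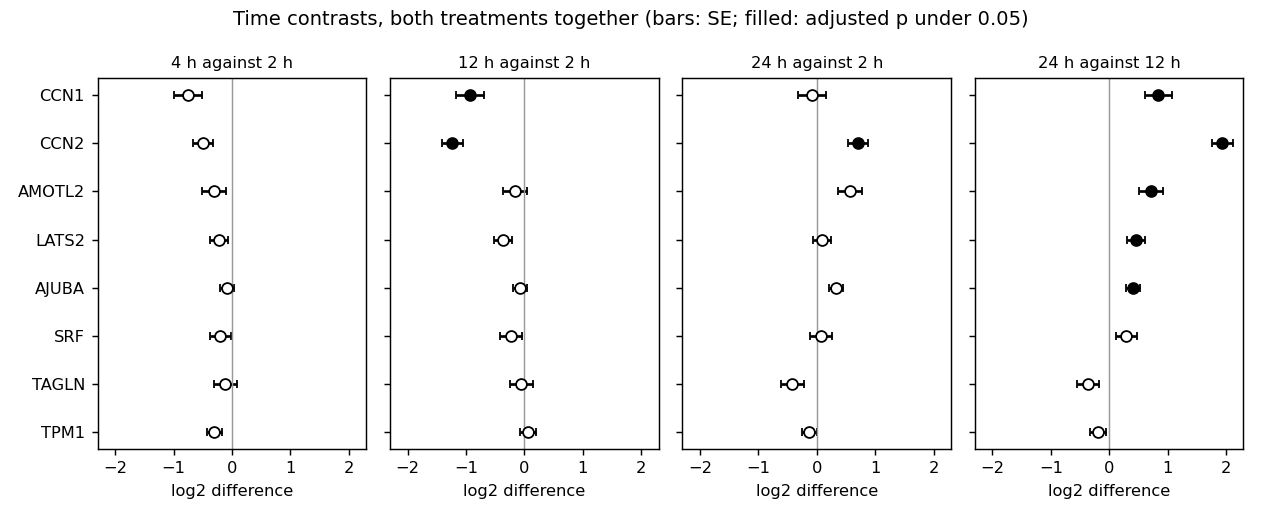
Log2 differences between times for the 8 tested genes, both treatments fitted together, with bars for the SE and filled points where the limma adjusted p lay under 0.05. CCN2 is filled at 12 h against 2 h (-1.23), 24 h against 2 h (0.71) and 24 h against 12 h (1.94), while SRF, TAGLN and TPM1 have no filled point.

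The scaling of the arrays moved the level of all genes between times. After cyclic loess and quantile normalization the median of all genes at 24 h against 12 h was 0.01 and -0.01 in place of 0.16, and at 24 h against 2 h it was -0.02 and -0.03 in place of 0.09. In those 2 settings the fall of CCN2 at 12 h and its rise at 24 h against 12 h were still called. Its rise at 24 h against 2 h was not, with TAGLN and TPM1 called lower there. AMOTL2, LATS2, AJUBA and CCN1 were called in neither setting at 24 h against 12 h. TPM1 was called lower there in both, by -0.50 and -0.56, and TAGLN after cyclic loess, by -0.53. The array classes also move with time, since both 12 h arrays lay in the lower one. Within the higher class CCN2 was 1.20 higher at 24 h than at 4 h, and 1.09 higher at 24 h than at 2 h in quercetin. Within the lower class its difference at 12 h against 2 h in control was -1.41. With spike-in class as an added block, the differences at 24 h against 12 h were 1.86 for CCN1 and 1.66 for AMOTL2, both called. LATS2 (0.88, limma adjusted p = 0.0506) and AJUBA (0.53, limma adjusted p = 0.172) were no longer called in that fit. The 2 h pair alone had 1 array in each class, so it alone set the class term. The differences with the block therefore carry that pair's quercetin difference, and do not show what the class contributed.

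The same within-class differences were 0.67, 0.25 and -1.35 for CCN1, and 0.87, 0.95 and -0.63 for AMOTL2. For AJUBA they were 0.42, 0.31 and -0.26, and for LATS2 0.32, 0.23 and -0.68. TAGLN gave -0.30, -0.22 and -0.45, and SRF 0.27, 0.0041 and -0.37. TPM1 gave 0.17, -0.12 and -0.06, so its 24 h level lay above 4 h within the higher class and 0.19 below 12 h in the contrast over all arrays. Hours after the start of treatment, hours without serum and hours in culture cannot be told apart in this design.

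For several genes the choice of probe set changed the picture. LATS2 was also read by 227013_at, an identifier of the gene-specific kind, with 9.75, 10.02, 10.33 and 10.98 in the quercetin arrays at 2, 4, 12 and 24 h, and 10.33, 10.01, 10.40 and 11.40 in the control arrays. Both 24 h arrays lay above the other 6, and the rise at 24 h against 2 h was 1.15 ± 0.18 (limma adjusted p = 0.000602 over all 22354 probe sets). The brighter 223380_s_at gave 0.10 in the same contrast. The files used here do not tell which transcripts each probe set detects.

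AJUBA was read by 4 probe sets above the filter. Between 2 and 24 h 1553764_a_at rose by 0.60 (limma adjusted p = 0.0404 over all probe sets), 243446_at differed by 0.40, 225806_at by 0.33 and 225807_at by 0.03. At 24 h against 12 h the tested 225806_at was 0.19 higher in quercetin and 0.62 higher in control. There 1553764_a_at, 225807_at and 243446_at differed by -0.01, -0.07 and -0.11 in quercetin, and by 0.63, 0.54 and 0.30 in control. The mean of the AJUBA probe sets differed by 0.26 in that contrast and was not called. TPM1 probe sets went both ways. In that contrast 238688_at fell by 0.59 (limma adjusted p = 0.0411), 206116_s_at differed by 0.45 (limma adjusted p = 0.147), 210987_x_at by -0.04 and 210986_s_at by -0.13. The second CCN1 probe set, 210764_s_at, differed by -0.46 at 12 h and by 0.56 at 24 h against 2 h, and neither was called. Its difference at 12 h was 0.18 in quercetin and -1.11 in control. It read 8.27, 8.42, 8.45 and 8.97 in the quercetin arrays at 2, 4, 12 and 24 h, lowest at 2 h. In the control arrays it read 8.91, 8.44, 7.80 and 9.34, lowest at 12 h. The 3 TAGLN probe sets differed by -0.42, -0.42 and -0.19 at 24 h against 2 h, and none was called. On the scale of single probe sets the fall of CCN1 at 12 h also missed the threshold (limma adjusted p = 0.0873).

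For quercetin against control over the 4 times limma called 0 of the 8 genes, and 0 of all 13298 genes (0% called). An unadjusted p under 0.05 was reached by 785 genes and by 0 of the 8. No treatment and time had a second array, so the p-values rest on how the quercetin difference changed from time to time, and replicate cultures were not compared. Were the signs of the 4 differences flipped exactly, the smallest two-sided p would be 1 in 8. The mean quercetin difference was 0.04 ± 0.12 for CCN2, 0.01 ± 0.17 for CCN1, -0.18 ± 0.15 for AMOTL2 and -0.02 ± 0.11 for LATS2. It was -0.16 ± 0.08 for AJUBA, -0.23 ± 0.13 for SRF, 0.02 ± 0.14 for TAGLN and -0.04 ± 0.10 for TPM1 (SE, 4 arrays per treatment). CCN1 and CCN2 lay lower in quercetin at some times and higher at others. None of the 8 had 1 sign at all 4 times, where 9.28% of all genes lay lower in quercetin at all 4 times and 4.55% higher.

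At a single time 1 array was set against 1 array, with no test. At 2 h all 8 genes lay lower in quercetin than in control, with a median difference of -0.37 against -0.06 for all genes, 58% of which lay lower. AMOTL2 differed by -0.88, CCN1 by -0.75, CCN2 by -0.46, SRF by -0.38, TAGLN by -0.37, LATS2 by -0.33, AJUBA by -0.25 and TPM1 by -0.11. The 2 h pair is the one with 1 array in each spike-in class and 18S signals of 12.01 in quercetin and 8.57 in control, and the part of these in the differences was not tested. The 5th to 95th percentile of all genes ran from -0.60 to 0.49 at that time, and AMOTL2 and CCN1 lay below that range.

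At 4 h 3 of the 8 lay lower, with a median of 0.04, where 54.2% of all genes lay lower (median -0.02). CCN1 was 0.78 and CCN2 0.41 higher in quercetin, above the 0.35 that marks the 95th percentile of all genes there. At 12 h 2 of 8 lay lower (median 0.10), where 40.7% of all genes did (median 0.05). TAGLN was 0.43 and LATS2 0.30 higher there, both below the 95th percentile of all genes (0.47). At 24 h 6 of 8 lay lower, where 66.2% of all genes did, with a median of -0.10 that equals that of all genes. SRF differed by -0.51, at the 5th percentile of all genes (-0.51), and CCN2 by 0.30, below the 95th percentile (0.42). No difference of the 8 reached 1 in either direction at any time. Of all genes 0.474% did so at 2 h and 0.0677% at 4 h. The later times had 0.346% (12 h) and 0.384% (24 h). A test of the quercetin difference at 12 and 24 h against that at 2 and 4 h called 0 of 8, and 0.368% of all genes, with a limma adjusted p of 0.9999 for each of the 8.

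**Figure D3:**
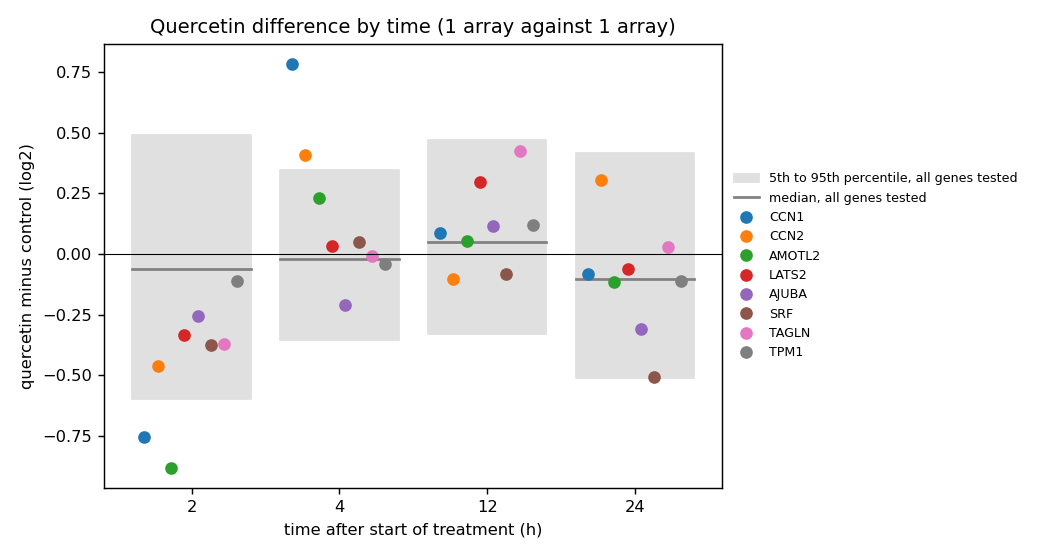
Quercetin minus control log2 difference of the 8 tested genes at each time, 1 array against 1 array, with a grey band for the 5th to 95th percentile of all genes tested and a line at their median. At 2 h all 8 points lie below 0, from -0.88 (AMOTL2) to -0.11 (TPM1), and at 4 h CCN1 lies at 0.78.

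The other genes of the 2 routes were described by lists, at 24 h against 2 h, where 17.3% of all genes were called higher and 3.98% called lower. Among 16 tested Hippo kinases and adaptors 4 were called higher and 0 lower, with a median of 0.15. STK3, a Hippo kinase upstream of LATS, read 7.36, 7.93, 8.74 and 9.40 in the quercetin arrays at 2, 4, 12 and 24 h, and 7.83, 7.63, 8.83 and 9.60 in the control arrays. Both 24 h arrays lay above the other 6, and STK3 rose by 1.91 ± 0.20 (limma adjusted p = 2.15e-06). TAOK1 rose by 1.13 ± 0.17 and TAOK3 by 1.07 ± 0.19, both kinases that activate STK3 and its relatives. LATS1, the paralog of LATS2, rose by 0.59 ± 0.19 (limma adjusted p = 0.0271). STK3 and LATS1 had already been called higher at 12 h, by 1.19 and 0.74. STK3, TAOK1 and TAOK3 were called with any 1 array left out. LATS1 was not called without the quercetin array at 2 h (0.53), without the control array at 24 h (0.50) or without the quercetin array there (0.68). It was not called after cyclic loess (0.41), after quantile normalization (0.36) or with the class block (0.65) either. With the mean of its probe sets TAOK1 differed by 0.34 and was not called. In that setting 0 of the 11 tested genes of this list were called, and STK3 and TAOK3 were not tested.

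Among the 7 tested YAP, TAZ and TEAD factors 4 were called higher and 0 lower, with a median of 0.51. TEAD1 rose by 0.77 ± 0.19, WWTR1, which encodes TAZ, by 0.75 ± 0.16, and VGLL4, which competes with YAP for TEAD, by 0.60 ± 0.17. YAP1 rose by 0.46 ± 0.14 (limma adjusted p = 0.0190) and was named after its value had been seen. WWTR1 read 10.90, 11.05, 11.51 and 11.93 in the quercetin arrays at 2, 4, 12 and 24 h, and 11.44, 11.00, 11.41 and 11.91 in the control arrays, with both 24 h arrays above the other 6. TEAD3 differed by 0.51 ± 0.18 (limma adjusted p = 0.0524). After quantile normalization 1 of the 7 was called. Without the quercetin array at 2 h 1 of the 7 was called, without the control array at 24 h 1, and without the quercetin array at 24 h 0. YAP1 then differed by 0.30, 0.42 and 0.50 in turn, TEAD1 by 0.36, 0.82 and 0.71, and the mean of the TEAD1 probe sets by 0.15. VGLL4 was called in 12 of 19 alternatives. It was not called after cyclic loess (0.37) or quantile normalization (0.31), with the class block (0.50), with the mean of its probe sets (0.56), or without the control array at 2 h (0.50) or either 24 h array (0.52 without control, 0.69 without quercetin). YAP1 was not called after cyclic loess (0.24) or quantile normalization (0.23), and WWTR1 not without the quercetin array at 2 h (0.45) or at 24 h (0.67).

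Of the 19 other tested YAP targets 3 were called higher and 0 lower, with a median of 0.15 that turned to -0.01 after cyclic loess and -0.03 after quantile normalization. NT5E, the ectoenzyme that makes adenosine from AMP, read 8.65, 8.33, 8.55 and 10.00 in the quercetin arrays at 2, 4, 12 and 24 h, and 8.78, 8.11, 8.47 and 10.49 in the control arrays. Only its 24 h arrays stood apart, and it rose by 1.52 ± 0.20 (limma adjusted p = 2.20e-05). IGFBP3, a binding protein of insulin-like growth factors, rose by 1.16 ± 0.19, and ASAP1, a GTPase-activating protein for Arf, by 0.96 ± 0.16. These 3 were called with any 1 array left out, but the mean of the ASAP1 probe sets differed by 0.29 and was not called. PTPN14, a phosphatase that binds YAP, differed by 0.49 ± 0.18 (limma adjusted p = 0.0586).

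Among the 6 tested SRF cofactors 3 were called higher and 0 lower, with a median of 0.53. ELK4 rose by 1.04 ± 0.20, MRTFB by 0.67 ± 0.17 and FHL2, a LIM protein that binds SRF, by 0.62 ± 0.18. With gene-specific probe sets ELK4 turned to -0.32 (limma adjusted p = 0.360). Without the quercetin array at 2 h, or without that at 24 h, FHL2 (0.26 and 0.42) and MRTFB (0.50 and 0.63) were not called, and MRTFB was not called without the control array at 24 h either (0.71). After quantile normalization MRTFB (0.38) and FHL2 (0.33) were not called, nor was FHL2 after cyclic loess (0.38) or with the mean of its probe sets (0.62). The mean of the ELK4 probe sets differed by 0.24 and was not called. In that setting 0 of the 5 tested cofactors were called. MRTFA differed by 0.44 ± 0.23 (limma adjusted p = 0.195) and read 9.41 in quercetin and 8.58 in control at 24 h.

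Other SRF and MRTF targets of the cytoskeleton gave 2 of 23 called higher and 0 lower, with a median of -0.04 against 0.09 for all genes. PDLIM5 rose by 0.61 ± 0.16 and CORO1C by 0.43 ± 0.15, both actin-associated proteins. Without the quercetin array at 2 h, or without either 24 h array, neither was called, and PDLIM5 was not called after quantile normalization (0.31) or with the mean of its probe sets (0.024). CORO1C was called in 7 of 20 alternatives. TLN1, talin, differed by 0.54 ± 0.25 (limma adjusted p = 0.134) and its gene-specific probe set fell by 0.60 (limma adjusted p = 0.0399). TPM2 differed by -0.46 ± 0.20. At 12 h against 2 h ACTA2 was the only gene of the list called, lower by -0.52 (limma adjusted p = 0.0341), and was named after its value had been seen. Of all genes 1.32% were called lower there. The list also had 1 gene called lower at 4 h against 2 h, where 0.534% of all genes were called. At 24 h against 12 h 1 of its genes was called higher and 3 lower, where 19.0% and 4.78% of all genes were.

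The immediate early genes that serum induces had 6 of 8 called higher at 24 h and 0 lower, with a median of 0.78. EGR1, a zinc finger transcription factor, read 11.47, 11.75, 11.86 and 13.24 in the quercetin arrays at 2, 4, 12 and 24 h, and 11.86, 11.87, 12.00 and 13.39 in the control arrays. Both 24 h arrays lay above the other 6, and EGR1 rose by 1.65 ± 0.13 (limma adjusted p = 3.63e-08). IER3 rose by 1.65 ± 0.18, MCL1, an inhibitor of apoptosis, by 0.95 ± 0.14 and FOS by 0.91 ± 0.21. EGR1, IER3 and MCL1 were called with any 1 array left out, and FOS was not called without the control array at 2 h (0.73), without that at 24 h (0.53) or with the class block (0.73). The called genes of this list numbered 3 to 6 over 19 alternatives. In none of the 6 lists was a gene called for quercetin against control.

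**Figure D4:**
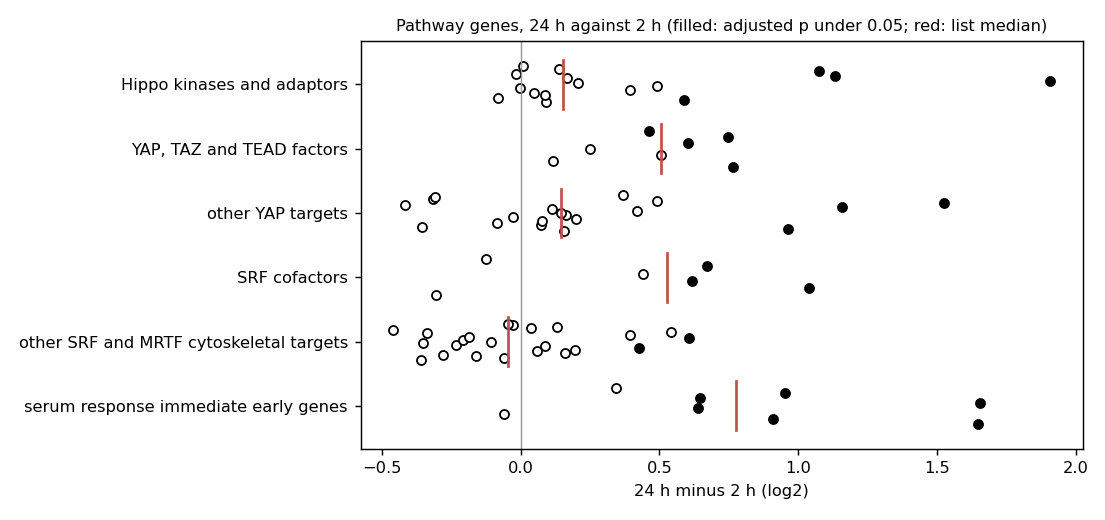
Log2 difference of 24 h minus 2 h, both treatments together, for each tested gene of the 6 lists, filled where the limma adjusted p lay under 0.05, with a red line at each list's median. The medians run from -0.04 for the cytoskeletal targets to 0.78 for the immediate early genes.

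Among all 28 pairs of the 8 genes the levels over the 8 arrays correlated above 0 in 21, with a median Pearson r of 0.54. The share above 0 among pairs of all tested genes was not counted. The highest was CCN1 with LATS2 (0.86) and the lowest CCN2 with TAGLN (-0.46). Of the 13290 other tested genes, those most like CCN2 over the 8 arrays were DLGAP1-AS1 (r = 0.97), ERBB3 (0.96), METTL23 (0.96), LOC105371763 (0.96) and CCDC12 (0.95). ERBB3, a receptor of the EGF receptor family, read 12.24, 11.85, 11.28 and 13.11 in the quercetin arrays at 2, 4, 12 and 24 h, and 12.39, 12.03, 11.46 and 13.03 in the control arrays. Its lowest arrays were those at 12 h and its highest those at 24 h, as for CCN2. Those most like CCN1 were ITIH4 (0.96), CEBPG (0.94), KLF10 (0.94), GABPB1-AS1 (0.94) and STK10 (0.94). These correlations are descriptions over arrays that share times and classes, and carry no test.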

How the data were processed

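Gene expression was measured on 8 single-colour Affymetrix arrays of HepG2 total RNA, 1 for each treatment (3 µM quercetin, control) and time (2, 4, 12, 24 h). Per the submitters' processing notes the authors used RMA, and they deposited the log2 values it gave. Its version and settings are not stated there. Array SDs of 1.74 to 1.95 show unequal distributions. Precision is limited by the number of arrays.

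Symbols came from the platform annotation and were updated through Entrez for 41037 of 41091 probe sets with 1 symbol. Another 1801 had several symbols and were not named. Each gene was read from its brightest probe set by mean, and the 13298 genes whose mean passed the probe set median entered limma 3.58.1 (R 4.3.3, lmFit, eBayes with trend, Benjamini-Hochberg, threshold 0.05). Time was a block beside treatment, with 3 residual degrees of freedom, moderated across genes. A second model compared late with early quercetin differences (2 residual degrees of freedom). Gene-specific probe sets are those without a shared-sequence letter in the identifier.

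All members, up to 4 genes of each list by size at 24 h against 2 h, up to 2 by mean quercetin difference, and the 5 genes most like CCN1 and CCN2 were taken for naming. The genes and lists were chosen with earlier results of these data known. Alternatives covered the filter, the probe set of a gene, normalization, variance moderation, blocks and arrays left out. The contrast of 24 h against 12 h and the spike-in class block are later additions, chosen after seeing the data. The class term rests on the 2 h pair alone. The code was tested on simulated data.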

Additional observations from a re-analysis of the deposited data

Results flagged for a closer look

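For 7 of the 8 tested genes the difference between times had opposite signs in the 2 treatments in at least 1 contrast with 2 h. Each is on 1 array per time, and whether the treatments differ in it was not tested. The share of all genes with opposite signs was not counted. At 4 h against 2 h CCN1 differed by 0.0174 in the quercetin arrays and by -1.52 in the control arrays, and AMOTL2 by 0.245 in quercetin and by -0.86 in control. SRF differed by 0.0166 in quercetin and by -0.41 in control, and TAGLN by 0.0675 in quercetin and by -0.29 in control. At 12 h against 2 h AMOTL2 differed by 0.310 in quercetin and by -0.62 in control, and TAGLN by 0.345 in quercetin and by -0.45 in control. AJUBA differed by 0.113 in quercetin and by -0.26 in control, and TPM1 by 0.178 in quercetin and by -0.06 in control. CCN1 at 24 h against 2 h differed by 0.253 in the quercetin arrays and by -0.42 in the control arrays, and LATS2 by 0.232 in quercetin and by -0.04 in control. All 10 differences rest on the 2 h pair, where all 8 genes lay lower in quercetin. That pair is the one with 1 array in each spike-in class (12.11 in quercetin, 11.24 in control).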

How the results depend on the processing

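With at most 2 arrays a time, counts of called genes moved with the settings, for the 8 and for all genes. At 12 h against 2 h the share of all genes called was 0.579% with probe sets averaged and 2.99% with robust eBayes. At 24 h against 2 h it was 29.5% with the 75th percentile filter, 22.7% with median centring and 15.5% after quantile normalization. At 24 h against 12 h it was 19.8% with eBayes without trend and 6.93% with the class block. With 1 array left out the share at 24 h against 2 h was lowest without the quercetin array at 2 h. At 12 h against 2 h CCN2 alone was called (1 of 8) with no filter, with probe sets averaged or tested singly, with median centring, with eBayes without trend and with robust eBayes, and leaving out 1 array in turn gave 1 to 2. At 24 h against 2 h the count was 2 with the 75th percentile filter or robust eBayes (AJUBA, CCN2) and with the spike-in class block (AMOTL2, CCN2), 4 with probe sets tested singly, 3 with gene-specific probe sets or median centring, 2 after cyclic loess or quantile normalization (TAGLN, TPM1), and 0 to 3 with 1 array left out (0 without the quercetin array at 2 h or at 24 h). For 24 h against 12 h it was 3 with probe sets averaged, eBayes without trend or the class block (AMOTL2, CCN1, CCN2), 3 after cyclic loess (CCN2, TAGLN, TPM1), 2 after quantile normalization (CCN2, TPM1), and 1 to 5 with 1 array left out (CCN2 alone without the control array at 12 h or either 24 h array). At 4 h against 2 h 1 array left out gave 0 to 3, and over the 4 times 2 to 5 (CCN1 and CCN2 without either 24 h array). The cause of these moves was not tested. CCN2 was called at 12 h against 2 h and at 24 h against 12 h in 20 of 20 alternatives, with limma adjusted p of 0.000321 to 0.0208 and of 6.68e-08 to 0.000233. CCN1 at 12 h was called in 11 of 20 and CCN2 at 24 h against 2 h in 16 of 20. Since CCN2 had 1 probe set, the settings of filter, probe set and variance moderation could not change its differences. Nor could leaving out an array at a time outside the contrast. Those alternatives could move only its p-value. Of all genes called at 24 h against 2 h, 81.3% were higher, against 60.2% after cyclic loess and 57% after quantile normalization. The shares at 24 h against 12 h were 79.9%, 49.6% and 45.1%. At 12 h against 2 h they were 55.9%, 66.1% and 68.4%, with 70% after median centring.

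For quercetin 0 of 8 were called in every alternative run, also with no time block or without any 1 time. Genes lower in quercetin at a single time numbered 1 at 4 h, 5 at 12 h and 2 at 24 h after cyclic loess, and 5 at 12 h and 3 at 24 h after quantile normalization. Mean quercetin differences that changed sign were those of CCN1 (-0.0427 with the mean of probe sets, -0.0160 with median centring, -0.0182 and -0.25 with the 12 h or 4 h pair left out), CCN2 (-0.0859 and -0.0504 with the 4 h or 24 h pair left out), AMOTL2 (0.0574 with the class block or without the 2 h pair), LATS2 (0.0372 after cyclic loess, 0.0379 after quantile normalization, 0.0894 with the class block or without the 2 h pair), TAGLN (-0.00466 with median centring, -0.12 without the 12 h pair) and TPM1 (0.15 with gene-specific probe sets, 0.0125 after cyclic loess, 0.00574 after quantile normalization). None of these was called in any setting.

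Among time contrasts, at 12 h against 2 h the sign turned for LATS2 (0.33 with gene-specific probe sets), AJUBA (0.0794 with the mean of probe sets, 0.0571 after cyclic loess, 0.11 after quantile normalization) and TPM1 (-0.0144 for averaged probe sets, -0.41 with gene-specific ones). Between 2 and 24 h it turned for CCN1 (0.24 with the mean of probe sets, 0.43 with the class block), LATS2 (-0.14 after cyclic loess, -0.17 after quantile normalization), SRF (-0.0282 with the mean of probe sets, -0.11 after cyclic loess, -0.15 after quantile normalization), ELK4 (-0.32 with gene-specific probe sets) and TLN1 (-0.17 for averaged probe sets, -0.60 with gene-specific ones). Between 12 and 24 h it turned for TAGLN (0.23 with gene-specific probe sets, 0.15 with the class block) and TPM1 (0.00184 with the mean of probe sets).

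With 1 array left out the range of differences crossed 0 at 12 h against 2 h for AMOTL2 (-0.63 to 0.31), AJUBA (-0.26 to 0.11), TAGLN (-0.32 to 0.22) and TPM1 (-0.0435 to 0.17). Between 2 and 24 h it crossed 0 for CCN1 (-0.59 to 0.43), LATS2 (-0.11 to 0.31), SRF (-0.12 to 0.25) and MRTFA (-0.0324 to 0.91). For quercetin against control it crossed 0 for CCN1 (-0.25 to 0.26), CCN2 (-0.0859 to 0.20), AMOTL2 (-0.31 to 0.0574), LATS2 (-0.12 to 0.0894) and TAGLN (-0.12 to 0.15). In the tests of quercetin the arrays were paired by time, except in the setting with no time block. The labels give no replicate numbers, so no further block was fitted. An array left out leaves 1 array at its time, which is assumed to vary like the others.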

Other observations

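Of 12 tested paralogs of the 9 genes, 1 was called higher at 24 h against 2 h and 0 lower, with a median of -0.002, and the one called was LATS1. Of all genes 17.3% were called higher and 3.98% lower there. CCN3, CCN4 and CCN5, paralogs of CCN1 and CCN2, differed by -0.04, 0.08 and 0.19 in that contrast. CCN6, a further paralog, differed by -0.41, and none of the 4 was called. At 24 h against 12 h, where CCN2 was 1.94 higher, CCN6 was 0.67 lower (limma adjusted p = 0.0208). TAGLN2, an actin-binding paralog of TAGLN, was 0.72 lower in the same contrast (limma adjusted p = 0.0101). These were the 2 of 12 paralogs called in it, where 4.78% of all genes were called lower and 19.0% higher. LIMD1, a relative of AJUBA in the same LIM family, differed by -0.50 there (limma adjusted p = 0.0526).

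Levels of TAGLN2 were 8.83, 8.71, 9.34 and 8.36 in the quercetin arrays at 2, 4, 12 and 24 h, and 8.77, 8.68, 9.02 and 8.57 in the control arrays. Its 12 h arrays were the highest and its 24 h arrays the lowest of the 8. No paralog was called for quercetin against control.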
